A study of Caenorhabditis elegans with 10 samples.

Results

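The regions described here are peaks of the heterochromatin protein HPL-2 in the hypodermis of Caenorhabditis elegans L4 larvae that have no peak of HPL-2 or of its paralogue HPL-1 over them in the intestine. They were found by DamID-seq, in which a chromatin protein carries the bacterial enzyme Dam and so leaves methyl marks on adenines of nearby GATC sites. A region was kept when its interval in the HPL-2 hypodermis list shared not even 1 bp with any interval of the HPL-1 intestine list or of the HPL-2 intestine list. This held for 881 of 1572 hypodermis peaks (56.0%), out of 4583 peaks in the 3 deposited lists. The members were thus chosen by the peak calls themselves, and their scores and absence from the intestine lists are descriptions, not findings.

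HPL-1 and HPL-2 are the worm members of the heterochromatin protein 1 family, which read methylated lysine on the tail of histone H3 and are known for keeping genes and repeats silent. Repressive chromatin of this kind is known to lie mainly on the arms of worm autosomes, while broadly used genes cluster in the centres. The hypodermis is the epidermis that builds the cuticle, and the intestine is the digestive and yolk-making organ.

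The series holds 10 libraries in 5 groups of 2, all from larvae grown for 48 h at 20 °C. The hypodermis groups are strain MRS578, which carries HPL-2::Dam, and its control BN561, which carries GFP::Dam. The intestine groups are MRS579 with HPL-1::Dam, MRS580 with HPL-2::Dam and the control BN1051 with GFP::Dam, which both intestine fusions share. Every group carries a Dam fusion in its named tissue, while the sources used here name neither the promoters that drive the fusions nor the state of the native hpl genes. Each list was called by the authors on an average profile against Dam, so values have no error between libraries and groups cannot be tested against each other. HPL-1 in hypodermis was not analysed here, so "hypodermis only" refers to these 3 lists alone. Intervals in brackets after a percentage are exact Clopper-Pearson 95% intervals, which cover counting error only and treat regions or genes as independent.

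The 881 regions covered 939.7 kb, 0.937% of the genome, and 53.9% of the sequence in the hypodermis list. Their widths ran from 35 to 4545 bp with a median of 934 bp, and 73 regions were 2 kb or wider. Scores, which are the authors' own on a scale that the lists do not state, ran from 0.45 to 3.19 with a median of 1.57. The other 691 hypodermis peaks had a median width of 979 bp and a median score of 1.77. Hypodermis-only regions lay toward the lower scores of their own list. With the list split by score into 5 bins of 314 or 315 peaks, they made up 33.1% of the highest bin, 52.5%, 59.7% and 65.9% of the bins that follow, and 68.9% of the lowest. Among the 100 highest scoring hypodermis peaks 22 were hypodermis-only, the best of them at rank 7. The authors' FDR was 0.01 or below for 446 of the 881 regions (50.6%), against 489 of the other 691 (70.8%).

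A region's nearest intestine peak lay a median of 9.26 kb away, with quartiles of 2.95 and 24.01 kb. In 116 cases (13.2%) an intestine peak lay within 1 kb, and in 460 (52.2%) within 10 kb, while 69 regions had none within 50 kb. The nearest peak belonged to HPL-2 in intestine for 477 regions and to HPL-1 for 361, with equal distances for 43. The HPL-2 intestine list is the longer of the pair, with 1665 peaks against 1346.

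**Figure D1:**
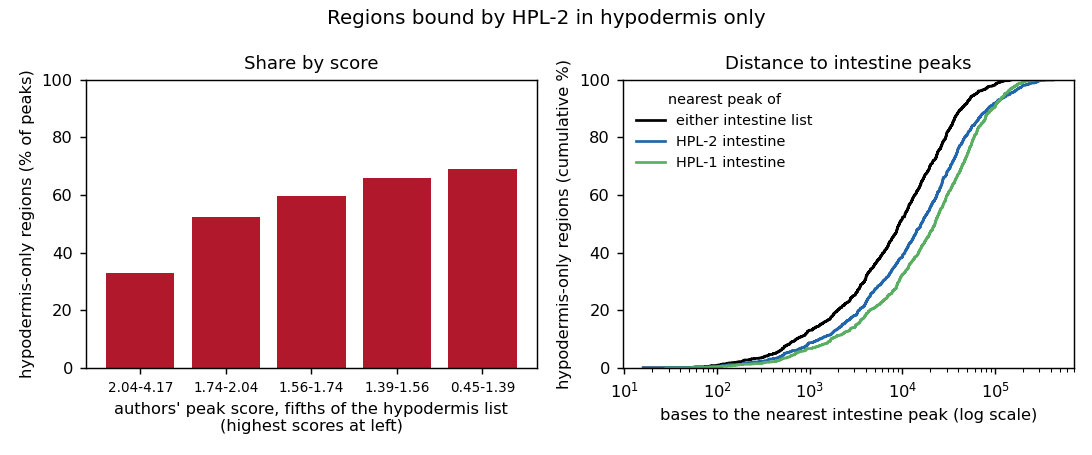
Left, share of hypodermis peaks that were hypodermis-only (percent, bars from 0) in 5 equal bins of the list by the authors' score, from 33.1% in the highest bin to 68.9% in the lowest. Right, cumulative percent of the 881 regions by bases to the nearest intestine peak (log scale), with a median of 9.26 kb for either list.

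At the edge of the rule, the closest region lay 16 bases from an HPL-2 intestine peak. It was at the troponin T gene tnt-4 (chromosome V, 1992036 to 1993055, score 1.32). The next lay on chromosome II (14323103 to 14323824, score 1.76) over no gene, 28 bases from peaks of both intestine lists, and then at M01G12.7 on chromosome I (12113972 to 12114357, score 1.28), 54 bases from an HPL-1 peak. On the other side, 37 hypodermis peaks were left out for an overlap of exactly 1 bp, and the smallest overlap above that was 10 bp. Such pairs shared only the coordinate at which one peak ended and the other began. Their scores ran from 1.16 to 2.48 with a median of 1.61. The first 3 along the genome were at txt-7 (I, 43807 to 45243, score 2.05), C53D5.5 (I, 306394 to 307188, score 1.44) and the endonuclease subunit gene eme-1 (I, 613667 to 614991, score 2.48).

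Most regions lay within or across genes. In the RefSeq gene table of the WBcel235 assembly, whose coordinates are used throughout, 721 of 19971 protein-coding genes (3.61%) had a hypodermis-only region over at least 1 bp of their body. The other hypodermis peaks lay over 533 (2.67%). Of the 881 regions, 688 (78.1%, 75.2% to 80.8%) touched a protein-coding gene, and 459 (52.1%) lay wholly inside one. A further 208 crossed the end of a gene, 21 held a whole gene, and 193 (21.9%) touched none. The sequence under the regions was 66.6% protein-coding gene body, close to the 65.5% under the other hypodermis peaks and above the 61.9% of the genome. The table gives neither strand nor exons, so promoters, introns and exons were not separated.

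For most of these genes the intestine lists were empty over the whole body, as 578 of the 721 genes (80.2%) held no intestine peak at all. In the other 143, HPL-2 or HPL-1 had an intestine peak at another place in the same gene. HPL-2 intestine peaks lay over 117 of the 721 genes and HPL-1 intestine peaks over 76. Of all protein-coding genes, they lay over 6.11% and 4.84%. Touched genes thus held intestine peaks more often than genes at large. The part of gene length in this was not tested. Those 143 genes were long, with a median length of 8837 bp against 2779 bp for the 578 and 2006 bp for all protein-coding genes. Long genes were also touched more often, from 1.80% of the shortest of 5 equal bins of genes to 7.59% of the longest, while the share of gene body covered was 1.38% and 1.04% in the same bins. Genes on chromosome arms were touched in 616 of 12427 cases (4.96%) and genes in centres in 105 of 7544 (1.39%).

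Other kinds of gene were touched as follows. Regions lay over 69 of 1921 pseudogenes (3.59%), and the other hypodermis peaks over 66 (3.44%). They lay over 1.44% of 7762 genes annotated as ncRNA, against 63 (0.812%) for the other hypodermis peaks, and over 6 of 612 tRNA genes (0.98%). Genes of piRNAs, the germline small RNAs that cluster on chromosome IV, were touched in 14 of 15363 cases (0.0911%). Among 260 miRNA genes 8 were touched (3.08%), with the highest score, 2.13, at mir-2217.2 on X. The pseudogene share was thus close to the protein-coding share, and the piRNA share was far below it. The piRNA share was similarly low for other hypodermis peaks (0.0781%), all HPL-2 intestine peaks (0.0846%) and all HPL-1 intestine peaks (0.111%). These shares were not adjusted for gene length, so they do not compare one kind of gene with another at equal length.

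The highest scoring region lay over pudl-2 on chromosome IV (2834844 to 2835290, score 3.19). Other genes with a letter-and-number name under the 15 highest scores were the G protein signalling gene rgs-4 (II, 12669751 to 12672587, score 2.75), the rhomboid family gene rom-4 (IV, 17010367 to 17011363, score 2.71), the nuclear hormone receptor gene nhr-79 (V, 19207083 to 19209216, score 2.59), and the neighbours gly-9, a glycosyltransferase gene, and mib-1, a ubiquitin ligase gene (III, 11288980 to 11289780, score 2.56). An HPL-2 intestine peak lay elsewhere in the bodies of rgs-4, gly-9 and mib-1, whereas pudl-2, rom-4 and nhr-79 had no intestine peak from either protein. The remaining regions of that set lay over genes known only by sequence names, over pseudogenes such as ZK380.3 (X, 1641990 to 1642461, score 2.83), or over no gene, as on chromosome III (6565863 to 6566952, score 2.85). One of them covered a spliced leader RNA gene, sls-1.12, and part of a 5S ribosomal RNA gene, rrn-4.4 (V, 17118090 to 17118872, score 2.56).

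Just below these, and named after their values were seen, were several well-studied regulators. They were unc-63, a subunit of the acetylcholine receptor of muscle (I, 5144494 to 5146162, score 2.48), the TGF-beta receptor gene daf-4 (III, 5626778 to 5628955, score 2.46), the sex determination factor tra-1 (III, 11184201 to 11187684, score 2.41), the double-stranded RNA channel gene sid-1 (V, 5125000 to 5125554, score 2.41), the small RNA factor eri-5 (IV, 2390867 to 2392193, score 2.34) and the serotonin transporter gene mod-5 (I, 3038825 to 3040207, score 2.34). Only mod-5 among these 6 had an intestine peak in another part of its body, from HPL-2. The tra-1 region, 3484 bp wide, was also among the 10 widest, and a second region lay in the same gene.

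The widest region, 4545 bp on chromosome II (3036066 to 3040610, score 1.96), covered the coding genes B0454.6, B0454.26 and B0454.5 and a group of short non-coding RNA genes. The next widest pair lay side by side on chromosome V (3393917 to 3397544, score 2.26, and 3398420 to 3402511, score 2.22), over the neighbouring genes T20D4.15, T20D4.12, T20D4.11 and T20D4.10. Named genes among the 10 widest were tra-1, the SET domain gene set-27 with tmem-132 (III, 2707705 to 2711135, score 2.28), unc-132 (V, 3692222 to 3695334, score 1.6) and ksr-2, a scaffold of Ras signalling (I, 12056542 to 12059652, score 1.88). A region of 3061 bp over Y20F4.4 (I, 2035591 to 2038651) had the lowest score of all, 0.45, while the next lowest was 1.16.

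Along the genome, 750 of the 881 regions (85.1%, 82.6% to 87.4%) had their midpoint in the outer parts of a chromosome divided into 3 equal parts. That was 11.2 regions per Mb on the arms against 3.92 in the centres. The other hypodermis peaks were on arms in 92.5% of cases (90.2% to 94.3%). Seen from the centres, 131 of 183 hypodermis peaks there were hypodermis-only (71.6%, 64.5% to 77.99%), compared with 750 of 1389 on arms (interval 51.3% to 56.6%). The share in the centre exceeded that of the whole chromosome on each of the 6 chromosomes, from 54.2% on I to 76.5% on III. Intestine peaks, which decide membership, were themselves sparser in centres, with 194 of 1665 HPL-2 and 348 of 1346 HPL-1 peaks there. The part this played in the share was not tested. The 995 HPL-2 intestine peaks without a partner in the other lists had an arm share of 85.1% (82.8% to 87.3%), and the 778 HPL-1 peaks without a partner had 61.4% (57.9% to 64.9%). No test over samples is possible for these shares.

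Among chromosomes, V held the most regions, 228, followed by I with 171, II with 163, III with 134, IV with 113 and X with 72. Per Mb, I, II and V carried 11.3, 10.7 and 10.9 regions, III carried 9.72, IV 6.46 and X 4.06. On X the left, central and right parts held 24 regions each, while on I the central part held 13 of 171. The right arm of V combined a high count with a low share. It held 115 hypodermis-only regions, the most of any arm. These were 46.6% (40.2% to 53.0%) of the 247 hypodermis peaks there, the lowest share of any left, central or right part. The next lowest, the right part of X, had an overlapping interval (48.98%, 34.4% to 63.7%). On V, 210 of 385 HPL-1 and 152 of 336 HPL-2 intestine peaks lay on the right arm. Their part in the low share was not tested.

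**Figure D2:**
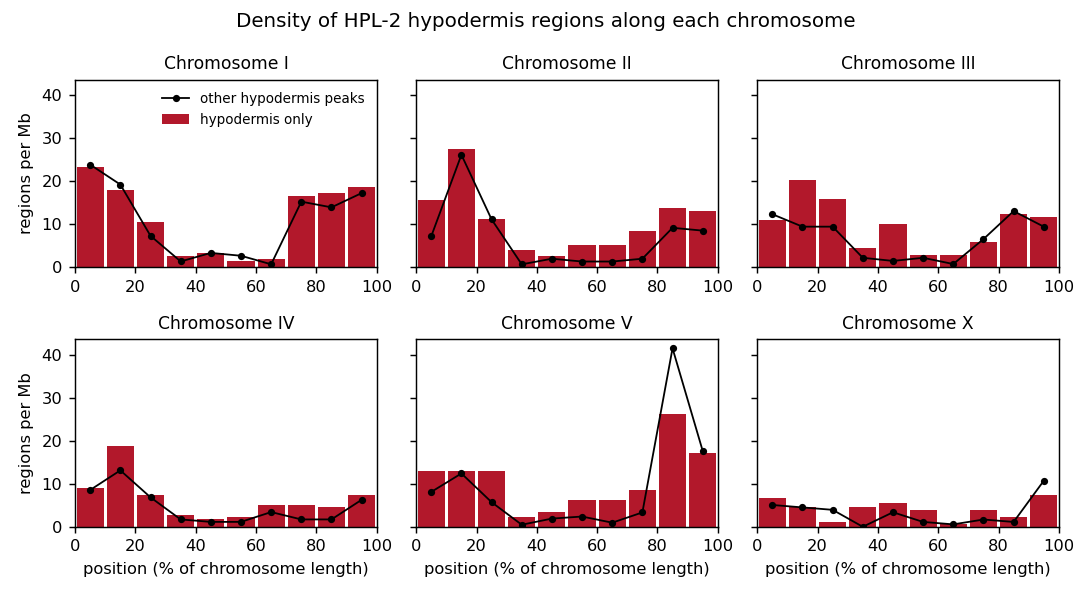
Hypodermis-only regions per Mb (bars) and other hypodermis peaks per Mb (line) in each of 10 equal parts of the 6 chromosomes, with position as percent of chromosome length. Bars are higher toward the ends than in the middle of I, II, III and V and on the left of IV, while the right end of IV (7.43) is about as low as the ends of X (6.77 and 7.34), with 11.3 regions per Mb on I and 4.06 on X, and the line exceeds the bars most on the right arm of V.

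Among windows of 1 Mb, 3 held no region and the median window held 6, while the 10 fullest windows held 243 of them (27.6%). The fullest, from 1 to 2 Mb on chromosome II, held 32 regions over 28 protein-coding genes, of which 6 were F-box genes and 2 were C-type lectin genes. It was followed by 17 to 18 Mb on V with 31 regions and 19 to 20 Mb on V with 28. When neighbours within 10 kb were joined, 285 regions fell into runs of at least 2 and 596 stood alone. The longest run had 7 regions over 30.1 kb of chromosome II (4183095 to 4213213) around cpna-1, a copine domain gene of muscle attachment sites, and the genes mth-1 and mth-2. That stretch also held 3 intestine peaks and 1 other hypodermis peak. In that run 4 regions lay within the body of cpna-1, the most for any gene, at scores of 1.85, 1.81, 2.07 and 1.26. A run of 6 on chromosome I (1466100 to 1488382) reached from F47G6.3 over acs-16 to the dystrobrevin gene dyb-1 and held no intestine peak.

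Gene families and tissue gene lists were then read against the 3.61% of all protein-coding genes. The same background was 2.67% for the other hypodermis peaks, 6.11% for all HPL-2 intestine peaks and 4.84% for all HPL-1 intestine peaks. The 33 lists held 3883 genes, and 142 of the 721 touched genes were in one of them. The lists were drawn up with earlier results of these data known, and their counts are given as descriptions without a test.

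Muscle genes had the highest share of any list under hypodermis-only regions, but they had peaks in every profile. Hypodermis-only regions lay over 14 of 39 genes of the contractile apparatus and its attachments (35.9%, 21.2% to 52.8%), and the other hypodermis peaks over 13 of the same 39. HPL-2 intestine peaks lay over 20 of them (51.3%) and HPL-1 intestine peaks over 9 (23.1%). Regions covered 5.31% of the sequence of these gene bodies, against 1.01% for all protein-coding genes. The genes of the list are long, with a median of 4800 bp, and the part of length in the gene share was not tested. The 20 regions over the list had scores from 1.23 to 2.27 with a median of 1.64. Expression was not measured, and the lists cannot tell whether any of these genes was silent in hypodermis.

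In 7 of the 14 muscle genes the hypodermis-only region was accompanied by no intestine peak. They were unc-96, a protein of the thick filament anchor (X, 621221 to 621854, score 2.27, touching the gene only at its end), the immunoglobulin domain gene dim-1 (X, 8053719 to 8054532, score 2.08), the troponin I gene unc-27 (X, 8788934 to 8789798, score 1.97), the myosin heavy chain gene myo-6, the calponin gene cpn-3 (I, 3988124 to 3988945, score 1.93), the dystrobrevin gene dyb-1 (score 1.5) and unc-87, which encodes a calponin-related actin-binding protein (score 1.41). The region over cpn-3 covered 75.8% of that short gene. The gene myo-6 held a pair of regions, scoring 1.66 and 1.94.

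In the other 7 the same gene also held HPL-2 intestine peaks, although in ttn-1 the only such peak lay near the opposite end of the body. The tropomyosin gene lev-11 had hypodermis-only regions scoring 1.44 and 2.0 on either side of its HPL-2 intestine peaks. The obscurin-related giant gene unc-89 had 3, scoring 1.68, 1.64 and 1.7, and the twitchin gene unc-22 had 3, scoring 1.56, 1.23 and 1.64. In unc-22 they lay among 5 other hypodermis peaks and 5 HPL-1 intestine peaks. The myosin gene myo-1 (1.45), the titin-related gene ttn-1 (1.38), the dystrophin gene dys-1 (1.32) and the troponin T gene tnt-4 (1.32) had 1 region each. In these 7 genes the hypodermis-only calls were segments of a gene that had peaks in both tissues. Over the 20 regions the median distance to an intestine peak was 2.60 kb, and 13 lay within 10 kb of one.

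**Figure D3:**
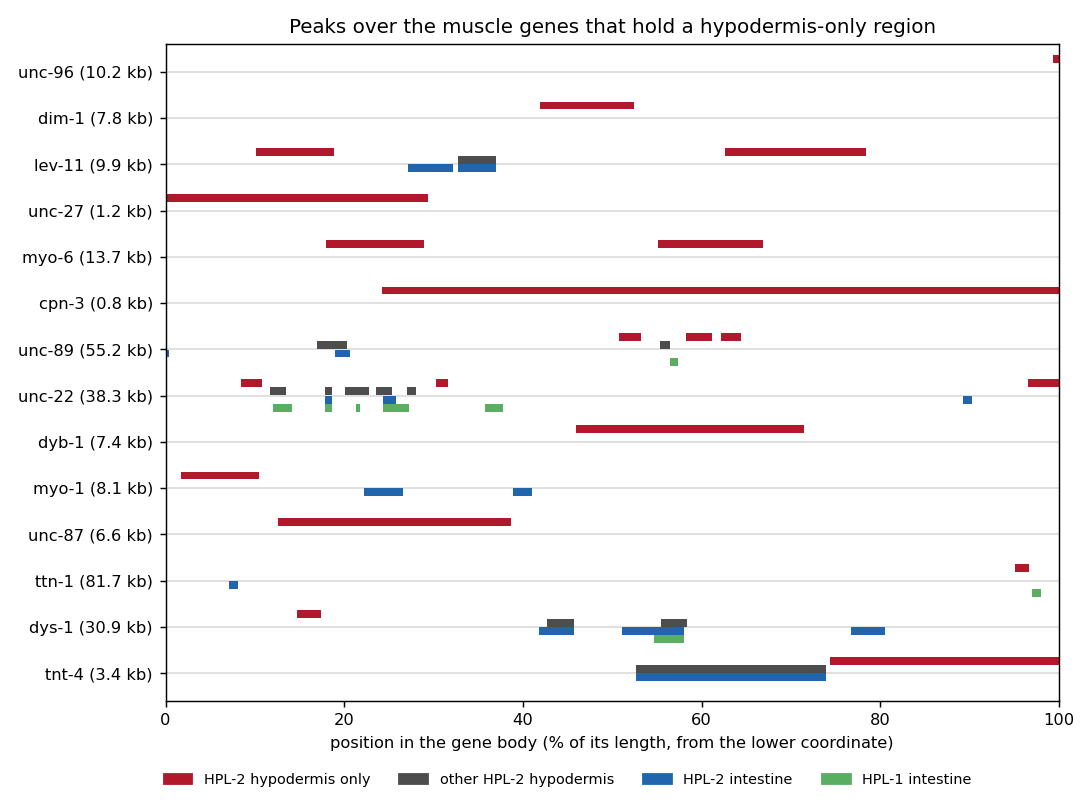
Peaks of each kind over the 14 muscle genes that hold a hypodermis-only region, with position as percent of the gene body from its lower coordinate and gene length in brackets. In 7 genes (such as myo-6 and cpn-3) red hypodermis-only bars stand alone. In the other 7 (such as unc-22 and dys-1) the gene also holds intestine peaks.

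C-type lectins, a large family of mostly secreted carbohydrate-binding proteins, had 19 of 239 genes (7.95%, 4.85% to 12.1%). The other hypodermis peaks lay over 17 of the 239 (7.11%), HPL-2 intestine peaks over 20 (8.37%) and HPL-1 intestine peaks over 28 (11.7%). Of the 19 lectin genes under hypodermis-only regions 17 had no intestine peak, and of all 721 touched genes 578 (80.2%) had none. The highest scores were at clec-21 (2.19), where the region covered 66.2% of the gene, clec-50 (2.15), clec-35 (1.9) and the neighbours clec-256 and clec-257 (1.89), which shared a region that held all of clec-257. F-box genes, whose products choose the substrates of ubiquitin ligases, were touched in 18 of 325 cases (5.54%, 3.32% to 8.61%). The other hypodermis peaks lay over 11 of the 325 (3.38%), HPL-2 intestine peaks over 5 (1.54%) and HPL-1 intestine peaks over 20 (6.15%). Another hypodermis peak lay over 72 of all 721 touched genes. All 18 F-box genes under hypodermis-only regions lacked such a peak and an intestine peak. The leading ones were fbxb-81 (2.35), fbxb-98 (2.01), fbxa-67 (1.75) and fbxb-96 (1.70), the last covered over its whole body. Genes of both families are short, with median lengths of 1786 bp for lectins and 1533 bp for F-box genes. The median of all touched genes was 3378 bp. The part of gene length in the counts without a second peak was not tested. Of the lectin genes 84.1% and of the F-box genes 96.9% lie on chromosome arms, where 4.96% of all protein-coding genes were touched. The intervals of both shares included that value. MATH and BTB domain genes, another family of ubiquitin ligase adaptors, had 6 of 89 (6.74%), all on chromosome II and led by bath-7 (1.57). Of the same 89 genes, 8 (8.99%) lay under other hypodermis peaks, 4 (4.49%) under HPL-2 intestine peaks and 12 (13.5%) under HPL-1 intestine peaks. On chromosome arms lie 91.0% of this list.

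Chemoreceptors, the largest list, had a lower share than all genes, 29 of 1309 (2.22%, 1.49% to 3.17%). Their share was also below that of all genes for other hypodermis peaks (1.53% against 2.67%). The same held for HPL-2 intestine peaks (1.45% against 6.11%) and HPL-1 intestine peaks (2.67% against 4.84%). The highest scores among the 29 were at sri-30 (2.15), srw-82 (2.09), srsx-25 (2.03) and srh-1 (1.99), and 26 of the 29 had no intestine peak. Nuclear hormone receptors had 7 of 274 (2.55%), none with an intestine peak, led by nhr-79 and then nhr-15 (1.74). Among all 721 touched genes, 578 (80.2%) had no intestine peak. These counts were not adjusted for gene length.

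Among genes of the hypodermis itself, few collagens and few regulators were touched, and both intervals included the 3.61% of all protein-coding genes. Of 176 cuticle collagen genes 2 were touched (1.14%, 0.138% to 4.04%), col-65 (1.84) and col-118 (1.38), and the other hypodermis peaks lay over 6. HPL-2 intestine peaks lay over 80 of the same 176 (45.5%), against their 6.11% of all genes. Of 44 epidermal regulators and molting genes 3 were touched (6.82%, 1.43% to 18.7%), each at a score below the regions' median of 1.57. They were the spectraplakin gene vab-10 (1.46), the Grainyhead factor gene grh-1 (1.42) and the zinc finger gene lin-29 (1.39), which acts in the switch of hypodermal cells to their adult state. Of these, vab-10 also held 5 HPL-2 and 4 HPL-1 intestine peaks. Regions covered 1.13% of the sequence of the 44 genes, against 1.01% for all protein-coding genes. Of the same 44 genes, 4 (9.09%) lay under other hypodermis peaks, 12 (27.3%) under HPL-2 intestine peaks and 8 (18.2%) under HPL-1 intestine peaks. None of the 58 epidermal antimicrobial peptide genes was touched, with an exact upper limit of 6.16% (5.17% if a count of 0 is taken to allow 3 genes). Hedgehog-related and patched-related genes, which act in molting, had 4 of 86 (4.65%, 1.28% to 11.5%), led by ptr-12 (2.00) and ptr-5 (1.93). Of the 4 touched genes, only ptr-5 had no intestine peak. Of the same 86 genes, 1 lay under other hypodermis peaks, 13 (15.1%) under HPL-2 intestine peaks and 12 (13.95%) under HPL-1 intestine peaks. Astacin proteases had 3 of 36 (8.33%, 1.75% to 22.5%), led by nas-17 (1.76). HPL-2 intestine peaks lay over 3 of the 36 and HPL-1 intestine peaks over 1.

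Lists for other tissues were counted in the same way. None of 39 intestinal genes was touched, with an exact upper limit of 9.03%. Of 34 neuronal genes 1 was touched, the ankyrin gene unc-44 (1.38), and of 30 germline granule genes 2, glh-1 (1.56) and meg-1 (1.23). Homeobox genes, which encode transcription factors of development, had 5 of 86 (5.81%, 1.91% to 13.05%). These were ceh-74 (2.29), unc-30 (1.84), which specifies GABA neurons, ceh-45 (1.70), ceh-10 (1.53) and vab-7 (1.26). None of the 5 had an intestine peak or another hypodermis peak. For comparison, 578 of all 721 touched genes (80.2%) had no intestine peak and 72 had another hypodermis peak. Gene length was not adjusted for in this comparison. Ion channel genes had 6 of 196, led by the potassium channel gene twk-31 (2.32), and neuropeptide genes had 3 of 96, led by nlp-17 (2.01).

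Among genes of chromatin and small RNA, 1 of 35 heterochromatin factors was touched. This was lin-13, a zinc finger gene whose product is known to act with HPL-2 (III, 7708962 to 7710731, score 2.03), and its region reached 530 bp into the gene. Of 21 Argonaute genes 2 were touched, wago-10 (1.5) and alg-2 (1.40), both with intestine peaks elsewhere in the gene. No histone gene of 72 was touched, with an exact upper limit of 4.99%. Glutathione S-transferases (0 of 49, exact limit 7.25%), genes of Skp1, elongin C and cullins (0 of 28, exact limit 12.3%) and chaperones (0 of 24, exact limit 14.2%) had none either.

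The smaller families ranged between these. Transthyretin-like genes had 3 of 58, of which ttr-24 and ttr-25 shared a region scoring 2.3. The pals genes, known from the response to intracellular pathogens, had 3 of 38, led by pals-24 (1.52), and sdz genes had 2 of 32, led by sdz-6 (1.56). UDP-glycosyltransferases had 2 of 67, led by ugt-35 (1.97), and the list of lysozymes, saposin-like genes and thaumatins had 2 of 57, led by spp-23 (1.42). A single gene was touched in each of the lists of cytochromes P450 (cyp-31A2, 1.53), major sperm proteins (ssp-31, 1.66), insulins (ins-19, 1.25), globins (glb-29, 1.51) and irld genes (irld-66, 1.21).

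**Figure D4:**
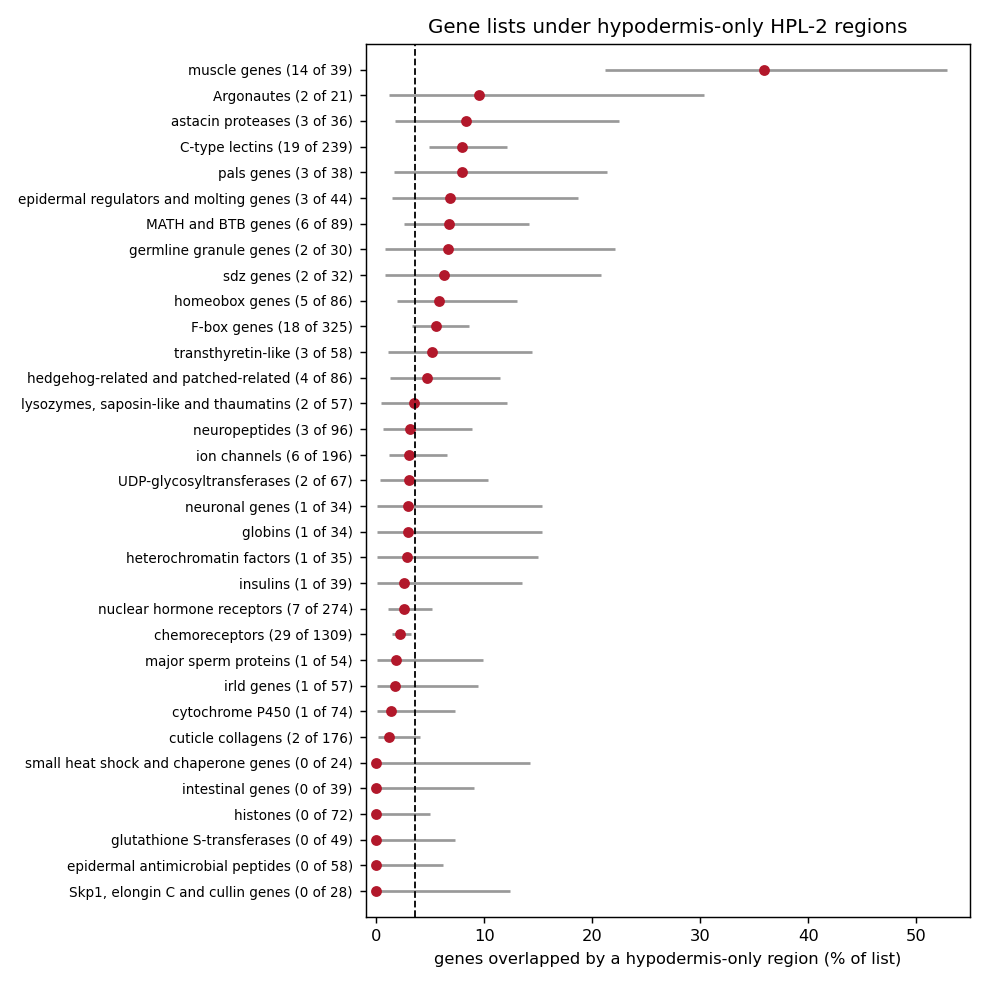
Percent of each gene list overlapped by a hypodermis-only region (points) with the exact 95% interval (grey lines), counts in brackets, and the 3.61% of all protein-coding genes as a dashed line. Muscle genes (35.9%) lie far to the right, C-type lectins (7.95%) have an interval above the line, and chemoreceptors (2.22%) have one below it.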

How the data were processed

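Peak lists from DamID-seq of 3 fusion and tissue groups were analysed. Per the submitters' processing notes, reads were processed on the WBcel235/ce11 assembly with R 3.4.3, Bowtie2 2.3.4 and SAMtools 1.9, and the peak caller is not given in the sources used here. The deposited lists give the authors' score for each peak and other values, namely chromosome, start, end and FDR. Per the labels on the lists, each was called on an average against Dam at an FDR of 0.05, so replicates were combined by the authors and depth is unknown. The labels do not say whether replicates were separate cultures. The score's scale is not stated, and it was used only within a list.

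Overlap meant 1 bp or more, for peaks and for RefSeq gene bodies (WBcel235). Each chromosome was taken to end at its last gene or peak. Named genes were those with letter-and-number names under the 15 highest scoring and 10 widest regions, up to 4 per list, the 3 regions on each side of the overlap rule and genes with the most regions; exceptions are stated. Regions, lists and named genes were chosen with earlier results of these data known. Alternatives varied the FDR, overlap, gene flank and arm definitions. Interval functions were tested on simulated data. Python 3.11.15, pandas 2.3.3, NumPy 2.4.6, SciPy 1.17.1 and Matplotlib 3.10.9 were used. No test was run, as lists without replicates allow none over samples.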

Additional observations from a re-analysis of the deposited data

How the results depend on the processing

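Counts followed the peak threshold. With regions at an FDR of 0.01 or below, 446 regions were left over 378 protein-coding genes, and the arm share was 88.1%. With arms as the outer parts of 4 equal parts, 75.5% of regions lay on them, as those parts cover less of each chromosome. When genes were widened by 1 kb at both ends, 86.7% of regions touched a protein-coding gene. A rule that removed regions only for overlaps of 2 bp or more, chosen after seeing the data, gave 918 regions with 85.6% on arms. Removal only by intestine peaks at an FDR of 0.01 or below left 1059 regions, and removal only at 50% cover or more left 1048. Requiring no intestine peak within 1 kb left 765. Of 70 further values, 59 stayed within the limits set and 11 moved. The limit was the exact interval for a share and a fixed fold change for a count. Some outcomes followed from the rules. The count of regions within 1 kb of an intestine peak stayed at 116 under looser removal and was 0 under the 1 kb rule. At the stricter FDR, C-type lectins went from 19 to 9 and F-box genes from 18 to 6. No paired analysis was possible because each list is an average that holds no values per replicate, and for the same reason no replicate could be left out. Depth per library is unknown, so an uncalled intestine peak does not show absence of binding there.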

Other observations

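A family outside the lists, picked after its values were seen, was that of the abu and pqn genes, which encode proteins rich in glutamine and asparagine. Hypodermis-only regions lay over 9 of 69 such genes (13.04%), and other hypodermis peaks over 2. Of all protein-coding genes these peaks lay over 3.61% and 2.67%. The members were abu-6 (1.81), abu-8 (1.58), abu-14 (1.56), abu-15 (1.57), pqn-84 (2.02), pqn-41 (1.74), pqn-42 (1.58), pqn-25 (1.52) and pqn-35 (1.48), with scores in brackets. Among them pqn-41 alone had intestine peaks, from both proteins. Genes named unc, for uncoordinated movement, were touched in 17 of 94 cases (18.1%, against the same 3.61%), and 5 of these are in the muscle list. Other hypodermis peaks lay over 6 of the 94. These counts were chosen for their size from many name prefixes and no test applies to them. Intestine peaks were not counted over the whole of either group.

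Peak edges were shared between lists. Of the 691 other hypodermis peaks, 488 had a start or end at the same base as an edge of an intestine peak, a match that the overlap rule itself excludes for hypodermis-only regions.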
